A study of Mus musculus with 37 samples.

Results

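The genes described here carry the Ube2 name, which in the mouse belongs to the ubiquitin-conjugating enzymes, or E2s. They are the rows of the RSEM gene table that GENCODE classes as protein_coding and whose symbol starts with Ube2, the enzymes Ube2c and Ube2s of the anaphase-promoting complex (APC/C) among them. The rule found 37 genes among 54752 gene rows without spike-ins, of which 21921 were protein_coding. A further 6 rows with a Ube2 symbol are pseudogenes or an antisense RNA and were left out. Ube2cbp was taken in by its name, although its product is known as a partner of Ube2c and not as an E2.

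Ubiquitin reaches a target protein through a relay: an E1 enzyme activates it, an E2 carries it, and an E3 ligase brings the loaded E2 to the target. The E2 often sets how the ubiquitin chain is linked, and so whether the target goes to the proteasome or takes part in signalling; a few E2s carry the ubiquitin-like proteins SUMO, NEDD8 or ISG15 instead. In oocytes the relay is best known for the APC/C, which with Ube2c and Ube2s marks cyclin B and securin for destruction, so that the oocyte can leave metaphase of the first meiotic division, and which is held back while the egg waits at metaphase of the second.

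The study sequenced RNA of 37 individual oocytes of C57BL/6 females that had been primed with the gonadotropin PMSG, with a Smart-seq2 library for each oocyte. Oocytes at the germinal vesicle stage (GV), arrested in prophase, came from the ovary, and ovulated oocytes at metaphase II (MII) came from the ampulla after a dose of hCG. Oocytes at metaphase I (MI) were GV oocytes that had matured in culture in M16 medium. The labels give 2 batches: batch A holds 6 GV and 6 MII oocytes, and batch B holds 10 GV and 15 MI oocytes. GV is the only stage in both batches, so each later stage was compared with the GV oocytes of its own batch. MII oocytes matured in the animal and MI oocytes in culture, so stage, batch and place of maturation cannot be told apart between MI and MII. The labels name no animal, so oocytes may share one, and every p-value measures the spread between oocytes.

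Counts summed over genes, without spike-ins, ran from 7509812 through a median of 10013962.5 to 12648571 in GV oocytes of batch A. In MII oocytes they ran from 9930422 through 10509080 to 13988336. In GV oocytes of batch B the range was 7184193 to 17724506 with a median of 11548239, and in MI oocytes 2709247 to 19390137 with a median of 12840682. The lowest of all was MI oocyte 15, which also had the fewest genes with a count (12654, against a median of 17696 for its group). MII oocyte 1 stood apart in the other direction, with 29816 genes against 22598 in the next MII oocyte. MI oocytes 4, 8 and 9 differed in how the 2 counting programs related: HTSeq gave 1.13, 1.11 and 1.07 counts for each RSEM count in the median gene, against 1.98 to 2.20 in all other oocytes. The counts of called Ube2 genes in each gene comparison that holds these libraries were also computed without them.

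All 12 oocyte markers, Gdf9, Zp3 and H1foo among them, were detected in every group. Their summed normalised counts, scaled by TMM library size (CPM), had medians of 14390 in GV and 10910 in MII oocytes of batch A, and of 6036 in GV and 5172 in MI oocytes of batch B. Between GV and MII oocytes 6 of the 12 fell at an adjusted p under 0.05, 5 of them by over 2-fold (Zp1, Zp2, Zp3, Ooep and Figla). Cumulus and granulosa markers summed to medians of 30.8 CPM (GV, batch A; range 22.1 to 42.2), 23.9 (MII; 19.9 to 33.5), 27.4 (GV, batch B; 18.4 to 52.9) and 22.1 (MI; 12.7 to 27.4). Cyp19a1 was the most abundant of these 14 genes, at a mean of 16.1 CPM in GV oocytes of batch A. The granulosa markers Amhr2 and Ptx3 were at 0 in both GV groups, and Amh and Foxl2 were at 0 in the GV oocytes of batch B and in the MI oocytes. Ccnd2 (log2 change -3.69) and Gja1 (log2 change -3.42) were lower in MI than in GV oocytes, each with an edgeR adjusted p of 0.0174. Blood and immune markers reached 14.7 CPM in MII oocyte 1, where the other MII oocytes had at most 2.43. The part of cells other than oocytes in the results was not tested.

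Taken per transcript length, Ube2 mRNAs spanned from undetected to among the most abundant messages of the oocyte. Summed over the 37 genes they made up a median of 7132 TPM (counts scaled by transcript length and depth) in GV oocytes of batch A (6388 to 8307) and 7557 TPM in MII oocytes (6595 to 8140). In batch B the sum was 5125 TPM in GV oocytes (4679 to 7049) and 4921 TPM in MI oocytes (4007 to 6091). The ranges of the sum overlapped between the stages of each batch. Ube2d3, Ube2t and Ube2k together held a median of 54.5% of the sum in GV and 56.4% in MII oocytes of batch A, and 53.7% in GV and 53.4% in MI oocytes of batch B.

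**Figure D1:**
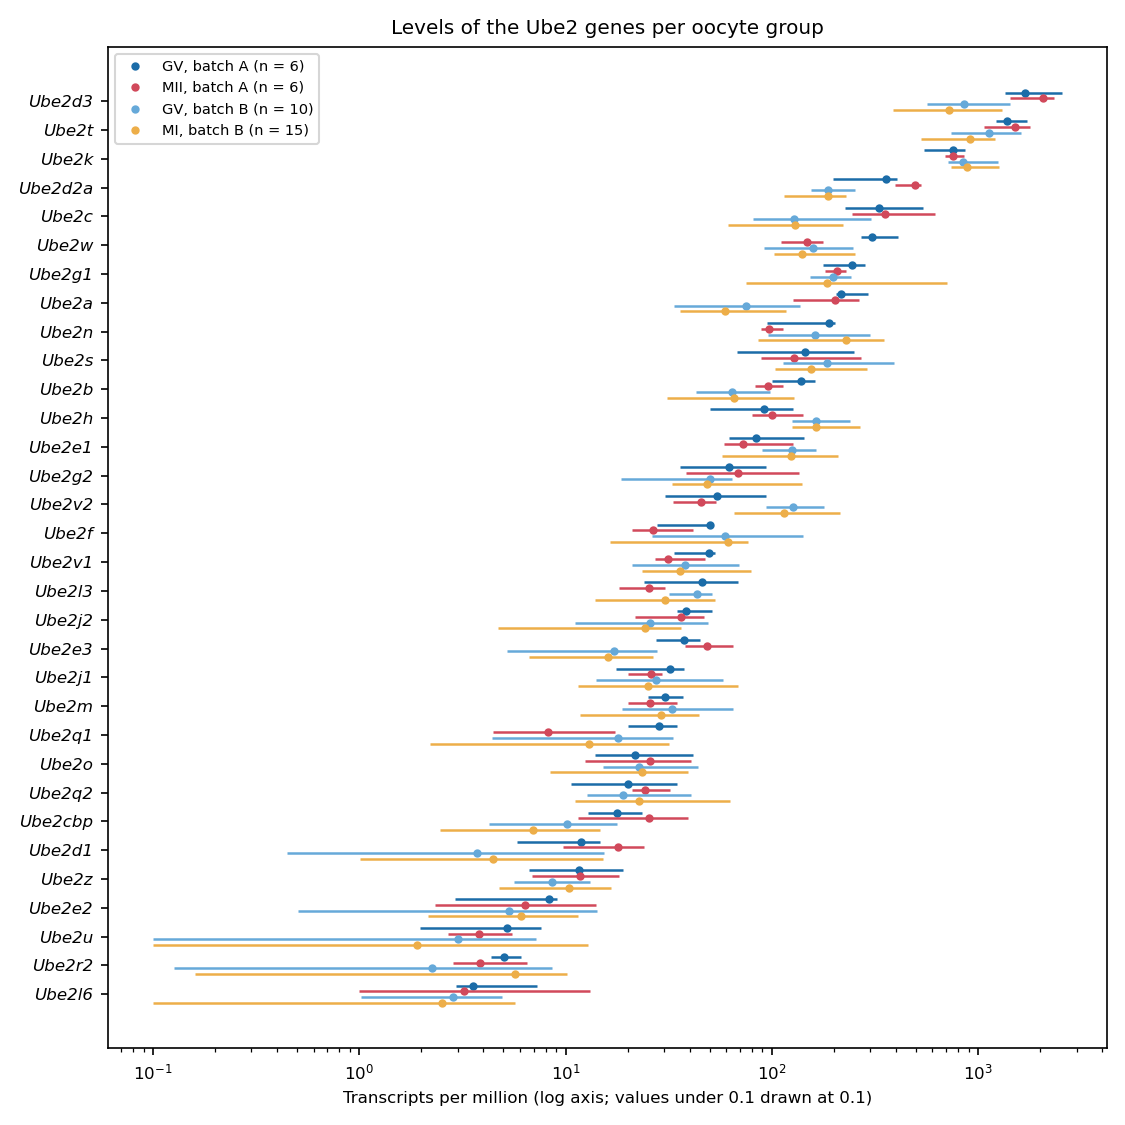
TPM (log axis) of 32 of the 33 Ube2 genes with a median above 1 TPM in GV oocytes of batch A, ordered by that median. Points are medians and lines run from the lowest to the highest oocyte of each group. Ube2d3, Ube2t and Ube2k lead in every group, and Ube2l6, Ube2r2, Ube2u and Ube2e2 lie near the low end.

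Ube2d3, a broad E2 that works with many E3 ligases, had the highest median in GV oocytes of batch A, 1682 TPM (1357 to 2538), above 99.8% of protein_coding genes. Ube2t, the E2 of the Fanconi anaemia repair pathway, followed with 1376 TPM (1223 to 1735), and the ranges of these 2 genes overlapped. Ube2k, which builds proteasome-directing chains, had 754.7 TPM (543.6 to 863.3), and the lowest values of Ube2d3 and Ube2t lay above its highest. Ube2d2a, a close relative of Ube2d3, had 356 TPM (199 to 403), below the range of Ube2k. In GV oocytes of batch B the same measure put Ube2t at the top with 1132 TPM (741 to 1610).

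Behind it in batch B came Ube2d3 with 854 TPM (568 to 1427), Ube2k with 845 TPM (718 to 1247) and, lower, Ube2g1 with 198 TPM (154 to 241). Ube2t, Ube2d3 and Ube2k overlapped in range, and Ube2g1 lay below all 3. Ube2c stood at 333 TPM (225 to 542) in GV oocytes of batch A and 128 TPM (81.2 to 304) in those of batch B. Ube2s stood at 145 TPM (67.7 to 251) and 185 TPM (113 to 391), in the same order of batches. At the low end Ube2l6, Ube2r2, Ube2u and Ube2e2 had medians of 3.56, 5.01, 5.20 and 8.36 TPM in GV oocytes of batch A. No test was run between the GV oocytes of the 2 batches.

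The genes absent or nearly so numbered 4: Ube2dnl2, Ube2d2b, Ube2dnl1 and Ube2ql1. Ube2dnl2 had a count of 0 in each of the 37 oocytes, which allows up to 3 counts in an oocyte, for counting error only. Ube2d2b had 1 count in 1 oocyte, MII oocyte 3. Ube2dnl1 had counts in 10 oocytes, up to 17, and Ube2ql1 in 10 oocytes, up to 14. These 4 genes did not pass the low-count filter and were not tested in any comparison; the other 33 members were tested in each of the 3. Ube2dnl1 and Ube2dnl2 lie side by side on the X chromosome (mm10, 114905012 to 114905941 and 114907582 to 114908510).

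The spread between oocytes of a group was wide. Among the 21 members with a mean of at least 10 CPM in every group, the coefficient of variation had a median of 22.9% in GV and 21.1% in MII oocytes of batch A. In batch B it was 28.1% in GV and 33.9% in MI oocytes. Ube2k was the steadiest in MII oocytes (4.95%) and in GV oocytes of batch B (12.0%), Ube2g1 in GV oocytes of batch A (13.2%) and Ube2h in MI oocytes (14.8%). Among the widest were Ube2g2, at 45.6% in MII and 52.9% in MI oocytes, and Ube2v1, at 46.4% in GV oocytes of batch B.

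The comparison of GV with MII oocytes asked which Ube2 mRNAs had changed their share of the oocyte's messages by the end of maturation. Ube2w and Ube2q1 fell by over 2-fold, Ube2l3 and Ube2v1 fell by less, and Ube2d2a rose; under spike-in scaling Ube2d2a turned to a log2 change of -0.21 (adjusted p = 0.453), while Ube2w and Ube2q1 stayed lower. The remaining 28 tested members, Ube2c and Ube2s among them, did not pass the test. By the rule of an adjusted p under 0.05 and a fold over 2 (edgeR quasi-likelihood test, Benjamini-Hochberg over all genes), 2 of 33 members were lower, where 6.32% of the 12929 genes tested were lower. No member was higher by that rule, against 2.15% of all genes tested. By DESeq2 the same rule also gave 2 members, beside 281 genes higher and 844 lower in all. At an unadjusted p under 0.05 there were 11 members of 33 by edgeR and 11 by DESeq2, beside 4441 of 12929 and 4583 of 12887 genes in all.

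At an adjusted p under 0.05 with any fold, 4 members were lower (11.5% of all genes tested) and 1 was higher (9.06% of all genes tested). Counting members whose 6 GV and 6 MII values did not overlap gave 2 lower (5.71% of all genes) and 1 higher (4.08% of all genes). Fitted changes were above 0 for 16 members and below 0 for 17, with a median log2 change of -0.03 (range -1.58 to 0.64), beside 0.01 for all genes tested; with spike-in scaling all 33 were below 0.

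Some directions at MII depend on the scaling. The main scaling (TMM) measures each gene against the bulk of the other genes, and the ERCC spike-ins measure it against added RNA. Spike-in counts ran from 44665 to 128319 in GV and from 120280 to 143061 in MII oocytes of batch A, and from 0 to 32 in batch B, so only batch A could be scaled by them. With spike-in totals as library sizes the median log2 change of all genes tested moved from 0.01 to -0.72, and that of the members from -0.03 to -0.77, with all 33 members below 0. Relative to that shift Ube2d2a, at -0.21, lay above the median gene, and Ube2w at -1.84 and Ube2q1 at -2.34 lay below it.

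**Figure D2:**
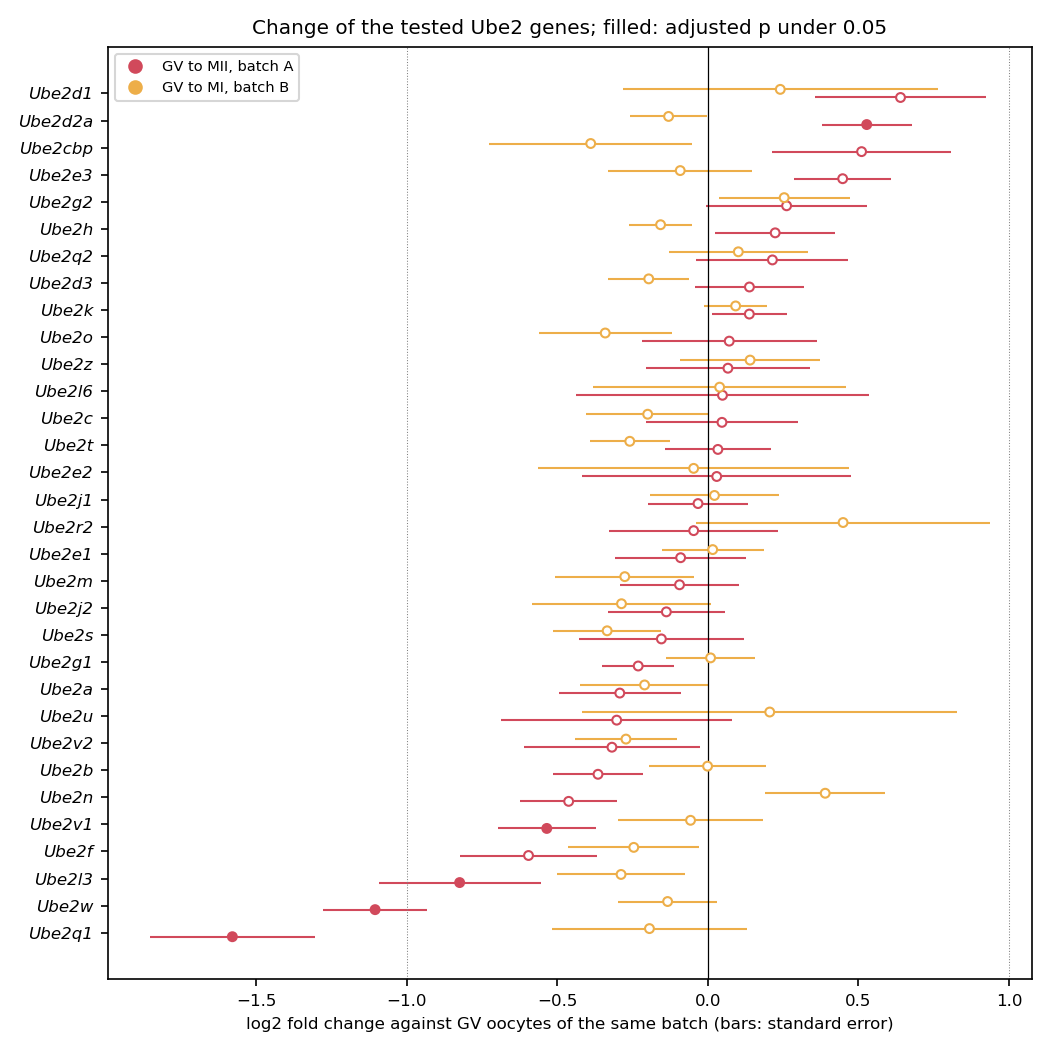
Log2 fold change (with standard error) of 32 of the 33 tested Ube2 genes from GV to MII oocytes in batch A and from GV to MI oocytes in batch B, each against GV oocytes of the same batch. Filled points had an adjusted p under 0.05: Ube2q1, Ube2w, Ube2l3 and Ube2v1 below 0 and Ube2d2a above 0 at MII (Ube2d2a at -0.21 with spike-in scaling), and no gene at MI.

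The broad ubiquitin E2s, a list of 10 genes of which 9 were tested, held 2 lower genes, Ube2w and Ube2l3 (11.5% of all genes tested were lower), and 1 higher gene, Ube2d2a (9.06% of all genes), which turned to -0.21 under spike-in scaling. Ube2w (ENSMUSG00000025939.17, mm10 chromosome 1, 16540790 to 16619489) is known for attaching ubiquitin to the free amino end of proteins. In GV oocytes of batch A its normalised counts ran from 156 through a median of 193 to 266 CPM, and in MII oocytes from 61.7 through 92.2 to 112 CPM (means 198 ± 43.1 and 92.0 ± 19.4, SD, n = 6 and 6). Every MII oocyte lay below every GV oocyte. The log2 change was -1.11 (SE 0.174, adjusted p = 0.000460), and Ube2w stayed past both thresholds in 19 of 19 alternatives, with log2 changes from -1.84 to -1.003.

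Ube2d2a (ENSMUSG00000091896.7, chromosome 18, 35771558 to 35809494) had 147 through 244 to 284 CPM in GV oocytes of batch A and 290 through 356 to 361 CPM in MII oocytes (means 237 ± 50.6 and 342 ± 28.5, SD, n = 6 and 6). The groups did not overlap, although the highest GV and the lowest MII oocyte were close. Its log2 change was 0.53 (SE 0.1499, adjusted p = 0.0209) and turned to -0.21 under spike-in scaling; it was past the adjusted p in 17 of 19 alternatives, all but spike-in scaling and no low-count filter (0.50, adjusted p = 0.0610). Ube2l3, a partner of the HECT and RING-between-RING ligases, had 8.02 through 12.2 to 24.9 CPM in GV and 5.98 through 8.24 to 9.22 CPM in MII oocytes. GV oocyte 3 fell within the MII range, and GV oocyte 5 was the highest. The share of ribosomal RNA-like counts in GV oocyte 5 was the lowest of batch A (7.24%). Its log2 change was -0.82 (SE 0.269, adjusted p = 0.0388), and it was past the adjusted p in 7 of 19 alternatives only. Leaving out any MII oocyte, or GV oocyte 1, 2 or 5, ended its call; without GV oocyte 5 the log2 change was -0.58 (adjusted p = 0.116). With HTSeq counts it was -0.66 (adjusted p = 0.166).

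**Figure D3:**
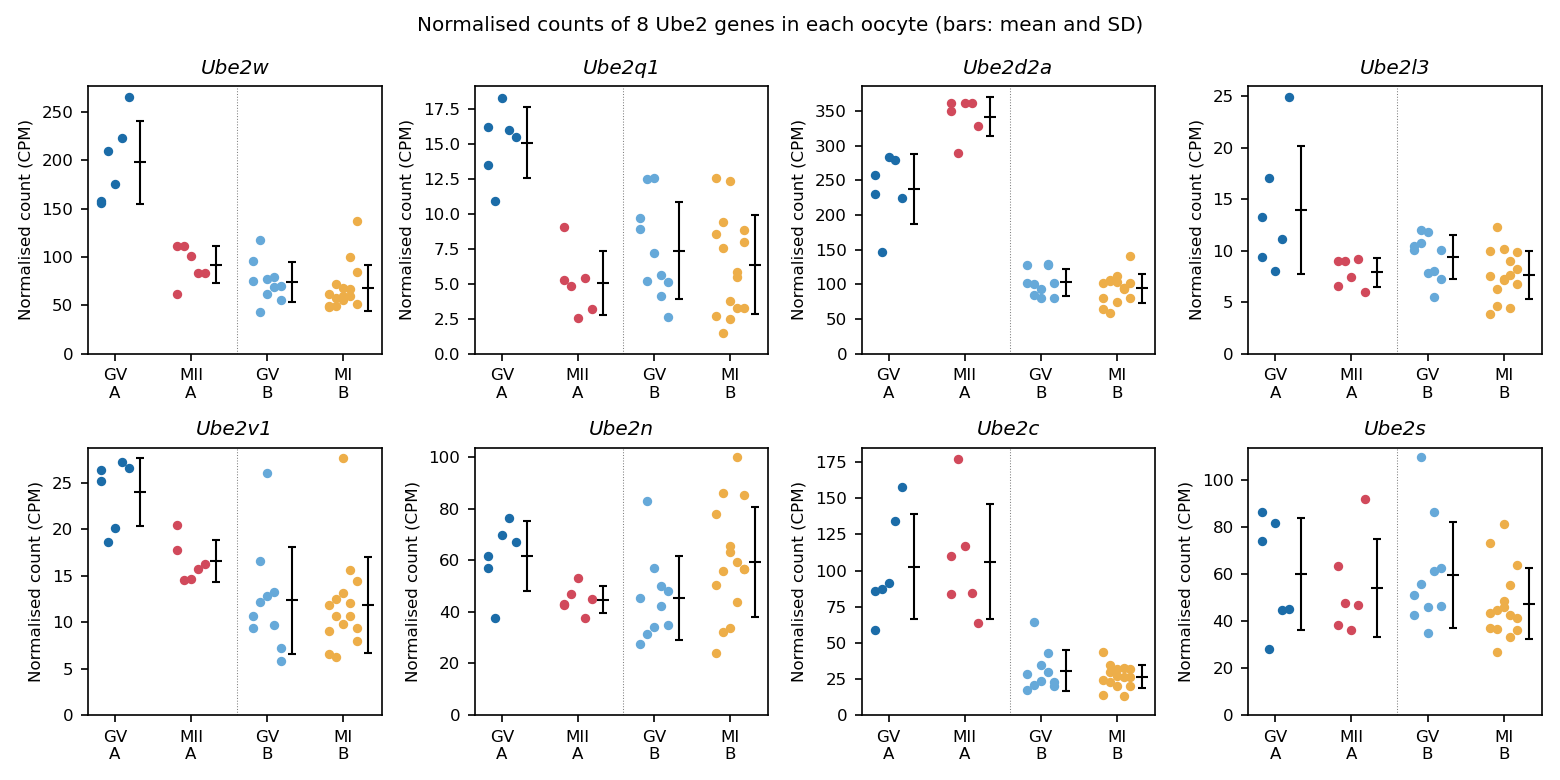
Normalised counts (CPM) of 8 Ube2 genes in each oocyte, by stage and batch, with the mean and SD of the group beside the points. In batch A every MII oocyte lies below every GV oocyte for Ube2w and Ube2q1 and above for Ube2d2a (whose log2 change is -0.21 with spike-in scaling), while the groups overlap for the other 5 genes; in batch B the GV and MI oocytes overlap for all 8.

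Ube2d3 did not pass the test between GV and MII oocytes (log2 change 0.14, SE 0.181, adjusted p = 0.628; -0.60 with spike-in scaling, adjusted p = 0.0420). Its counts ran from 669 through 823 to 1310 CPM in GV and from 691 through 999 to 1227 CPM in MII oocytes, and the ranges overlapped almost fully. Ube2h, which is best known as the E2 of the CTLH ligase, had a log2 change of 0.22 (SE 0.199, adjusted p = 0.457).

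Large and divergent E2s are a list of 5 genes, of which 4 were tested and 1, Ube2q1, was lower (11.5% of all genes tested). Ube2q1 (ENSMUSG00000042572.12, chromosome 3, 89773616 to 89784000) had 11.0 through 15.8 to 18.3 CPM in GV oocytes of batch A and 2.56 through 5.04 to 9.03 CPM in MII oocytes (means 15.1 ± 2.54 and 5.05 ± 2.27, SD, n = 6 and 6). The 6 MII oocytes all lay below the lowest GV oocyte. The log2 change of Ube2q1 was -1.58 (SE 0.275, adjusted p = 0.00103), and it stayed past both thresholds in 19 of 19 alternatives, with log2 changes from -2.34 to -1.44. Ube2o, a large enzyme that acts as E2 and E3 in a single protein, had a log2 change of 0.07 (SE 0.290, adjusted p = 0.889).

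Among the 6 E2s of DNA damage and of signalling chains, Ube2v1 was lower (11.5% of all genes tested) and the other 5 did not pass the test. With spike-in scaling all 6 were lower at an adjusted p under 0.05 with any fold, as were 18 of the 33 members. By that scaling 3788 of the 12929 genes tested were lower by over 2-fold at that adjusted p. That count has a stricter rule, so the 6 cannot be set against it. The share of all genes lower with any fold is not given here. The list's median log2 change was -0.34, beside 0.01 for all genes tested (-1.09 beside -0.72 with spike-in scaling). Ube2n makes its signalling chains together with the catalytically inactive partners Ube2v1 and Ube2v2. Ube2v1 had 18.6 through 25.8 to 27.3 CPM in GV and 14.5 through 16.0 to 20.5 CPM in MII oocytes of batch A. The highest MII oocyte, number 1, lay above 2 of the GV oocytes. The log2 change of Ube2v1 was -0.53 (SE 0.164, adjusted p = 0.0289), and it was past the adjusted p in 8 of 19 alternatives; with HTSeq counts it was -0.25 (SE 0.510, adjusted p = 0.785). Leaving out GV oocyte 1, 4, 5 or 6 or MII oocyte 2, 3 or 4 ended its call as well, with log2 changes as small as -0.50 (adjusted p = 0.0639 without GV oocyte 4).

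Ube2n had 37.8 through 64.5 to 76.6 CPM in GV and 37.7 through 44.1 to 53.0 CPM in MII oocytes of batch A. All GV oocytes but number 2 lay above the MII oocytes. The log2 change of -0.46 (SE 0.162, adjusted p = 0.0526) missed the threshold. Ube2n passed the adjusted p in 4 of 19 alternatives. These were without GV oocyte 2 (-0.57, adjusted p = 0.00783), without MII oocyte 3 (-0.51, adjusted p = 0.0487), by DESeq2 (-0.45, adjusted p = 0.0438) and with spike-in scaling (-1.19, edgeR adjusted p = 0.000674). Ube2v2 had a log2 change of -0.32 (SE 0.293, adjusted p = 0.473), and Ube2t of 0.03 (SE 0.177, adjusted p = 0.916; -0.69 with spike-in scaling, adjusted p = 0.0189). Ube2a and Ube2b, the Rad6 enzymes of DNA damage tolerance and histone H2B ubiquitination, did not pass either.

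The APC/C enzymes Ube2c, which places the first ubiquitins on its substrates, and Ube2s, which extends the chains, did not pass the test in any comparison, and both were well expressed in every group. Ube2c counts ran from 58.6 through 89.5 to 158 CPM in GV and from 63.7 through 97.2 to 177 CPM in MII oocytes of batch A. Ube2s counts ran from 28.2 through 59.6 to 86.4 CPM in GV and from 36.2 through 47.2 to 91.7 CPM in MII oocytes. Both pairs of ranges overlapped over most of their length. The log2 change at MII was 0.05 for Ube2c (SE 0.251, adjusted p = 0.917) and -0.15 for Ube2s (SE 0.275, adjusted p = 0.733); with spike-in scaling Ube2s was at -0.91 (adjusted p = 0.0352) and Ube2c at -0.68 (adjusted p = 0.0630).

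In the remaining lists no member passed the test at MII under the main scaling. The E2s of proteasome-directing chains, of the endoplasmic reticulum and of SCF ligases (6 genes, all tested) had a median log2 change of -0.04 and a range from -0.23 to 0.26. With spike-in scaling the median was -0.78, beside -0.72 for all genes tested, and 4 were lower at an adjusted p under 0.05. By that scaling 3788 of the 12929 genes tested were lower by over 2-fold at that adjusted p. Ube2k was at 0.14 (SE 0.123, adjusted p = 0.461; -0.58 with spike-in scaling, adjusted p = 0.0389), and Ube2g1 at -0.23 (SE 0.1203, adjusted p = 0.187). The E2s of ubiquitin-like proteins (5 genes, all tested) had a median of 0.05, which was -0.15 without MII oocyte 1. With spike-in scaling the median was -0.71, and 2 were lower at an adjusted p under 0.05 with any fold, beside 18 of the 33 members.

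Between GV and MI oocytes of batch B, which compares prophase arrest with metaphase of the first division, no Ube2 gene passed the test. By edgeR 0 of 33 members were higher and 0 lower at an adjusted p under 0.05 and a fold over 2, where 0.0886% of the 12419 genes tested were higher and 0.0322% lower. With any fold the members were again 0 and 0, beside 0.0966% of all genes higher and 0.0483% lower. Members whose groups did not overlap numbered 0 in each direction, beside 0.00% of all genes higher and 0.00% lower. At an adjusted p under 0.05 and a fold over 2 DESeq2 also gave 0 members, beside 103 genes higher and 13 lower of 12419 in all. At an unadjusted p under 0.05 there were 0 members by edgeR and 0 by DESeq2, where 1371 and 1557 genes in all were under it. Fitted changes were above 0 for 13 members and below 0 for 20, with a median log2 change of -0.09 (range -0.39 to 0.45), beside 0.02 for all genes tested.

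The smallest adjusted p in that comparison belonged to Ube2t, which had 171 through 263 to 392 CPM in GV and 127 through 218 to 285 CPM in MI oocytes (log2 change -0.26, SE 0.132, adjusted p = 0.472). Ube2n had 27.4 through 43.7 to 83.1 CPM in GV and 24.1 through 56.6 to 99.96 CPM in MI oocytes (log2 change 0.39, SE 0.200, adjusted p = 0.478). For both genes the MI and GV oocytes overlapped over most of the range. Ube2s had 35.0 through 53.3 to 109.6 CPM in GV and 26.9 through 43.6 to 81.3 CPM in MI oocytes, with a log2 change of -0.33 (SE 0.180, adjusted p = 0.504). Ube2c had 17.6 through 26.2 to 64.4 CPM in GV and 12.8 through 26.5 to 43.7 CPM in MI oocytes, with a log2 change of -0.20 (SE 0.203, adjusted p = 0.786). Again the groups overlapped, and GV oocyte 7 was the highest of its group for Ube2t, Ube2n, Ube2s and Ube2c.

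Ube2v2 (log2 change -0.27, SE 0.170, adjusted p = 0.590) and Ube2o (log2 change -0.34, SE 0.221, adjusted p = 0.614) came next. Ube2w had 42.6 through 72.8 to 118 CPM in GV and 48.4 through 59.9 to 137 CPM in MI oocytes (log2 change -0.13, SE 0.166, adjusted p = 0.839). Ube2q1 had 2.59 through 6.40 to 12.6 CPM in GV and 1.44 through 5.87 to 12.6 CPM in MI oocytes (log2 change -0.19, SE 0.323, adjusted p = 0.891). Ube2d2a had 79.7 through 101 to 129 CPM in GV and 59.0 through 95.2 to 141 CPM in MI oocytes (log2 change -0.13, SE 0.128, adjusted p = 0.775). In each of the 3 genes the MI oocytes spread over nearly the whole GV range, and for Ube2w and Ube2d2a the highest MI value was that of oocyte 15, the library of lowest depth.

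Whether the change to MII differed from the change to MI was tested in a single model of all 37 oocytes, each stage against the GV oocytes of its batch. The change to MII minus the change to MI was 0.73 on the log2 scale for Ube2d2a (SE 0.211, adjusted p = 0.0301) and -0.89 for Ube2w (SE 0.270, adjusted p = 0.0406). Neither gene had passed the test at MI, the change of Ube2d2a to MII turned to -0.21 with spike-in scaling, and batch B could not be scaled by spike-ins. These genes were 2 of 33 members, or 1 in each direction, where 5.46% of the 15083 genes tested passed the same rule. The median difference of the members was 0.07, beside 0.04 for all genes tested. Ube2q1 (difference -1.32, SE 0.512, adjusted p = 0.137), Ube2n (-0.78, SE 0.314, adjusted p = 0.153) and Ube2h (0.45, SE 0.209, adjusted p = 0.250) did not pass, nor did Ube2c (0.33, SE 0.341, adjusted p = 0.698) and Ube2s (0.24, SE 0.332, adjusted p = 0.796).

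Both calls of a difference were near the threshold. Without MII oocyte 1 the difference of Ube2w was -0.76 (adjusted p = 0.112), and without MI oocytes 4, 8 and 9, which was decided on once the data had been seen, it was -0.87 (adjusted p = 0.0562). Ube2d2a kept its call in both, but with HTSeq counts neither gene passed (Ube2d2a 0.56, adjusted p = 0.267; Ube2w -0.90, adjusted p = 0.0727). Over the 8 alternatives Ube2d2a passed in 5 and Ube2w in 4.

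Per transcript, 83 annotated transcripts of the members passed the filter in each comparison. Between GV and MII oocytes 3 of them were called at an adjusted p under 0.05 and a fold over 2, all lower, where 5.57% of the 22461 transcripts tested were called in either direction. Ube2w-201, the protein_coding transcript that held a median of 99.0% of the Ube2w counts in GV oocytes and 97.8% in MII oocytes, ran from 155 to 272 CPM in GV and from 62.4 to 109.5 CPM in MII oocytes (log2 change -1.14, SE 0.176, adjusted p = 0.00158). Ube2q1-202, also protein_coding, ran from 8.64 to 14.1 CPM in GV and from 1.84 to 7.70 CPM in MII oocytes (log2 change -1.81, SE 0.368, adjusted p = 0.00859). Neither transcript overlapped between the groups. The other tested Ube2q1 transcript, Ube2q1-201, did not pass (log2 change -1.15, SE 0.434, adjusted p = 0.118). Without MII oocyte 1 the called transcripts numbered 4, with 1 of them higher.

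The called transcript of Ube2n, Ube2n-204, is annotated as a processed transcript without an open reading frame. It ran from 8.81 to 19.9 CPM in GV and from 2.46 to 6.85 CPM in MII oocytes (log2 change -1.65, SE 0.327, adjusted p = 0.00759), again without overlap. Its median share of the Ube2n counts was 25.1% in GV and 11.6% in MII oocytes. The coding transcript Ube2n-201 held 30.2% in GV and 48.1% in MII oocytes, with a log2 change of 0.22 (SE 0.192, adjusted p = 0.541). Ube2n-205, which the annotation marks for nonsense-mediated decay, held 43.4% and 39.9%, with a log2 change of -0.65 (SE 0.236, adjusted p = 0.104).

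**Figure D4:**
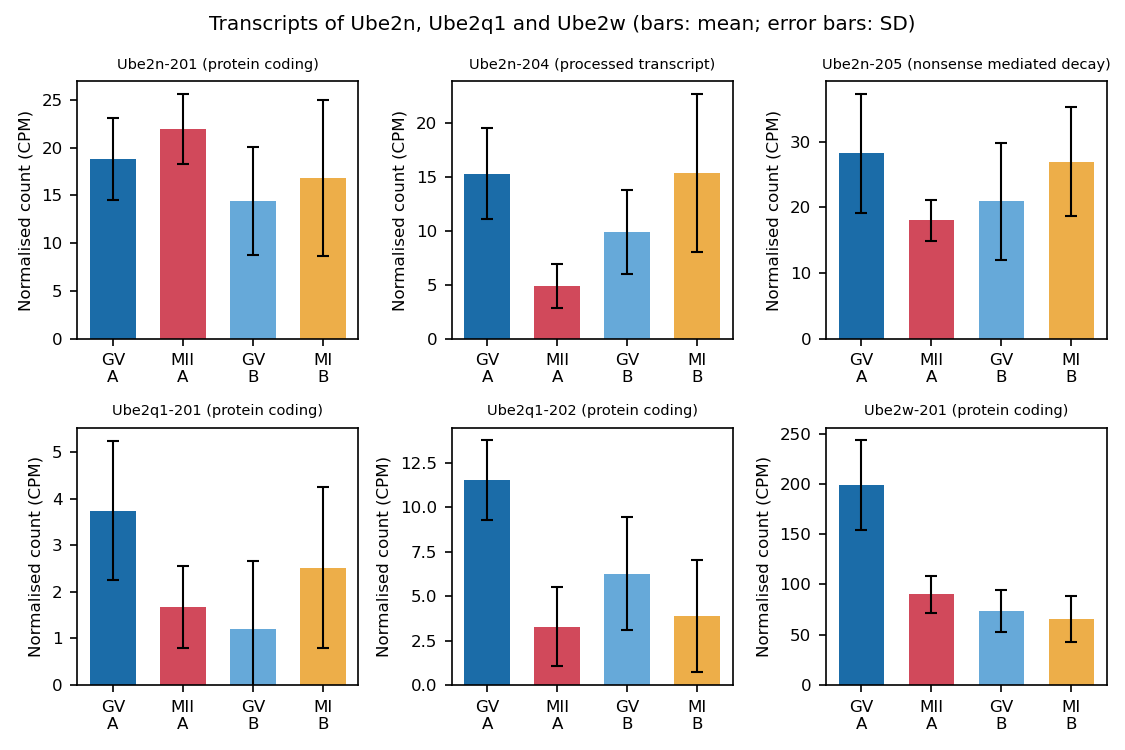
Mean normalised counts (CPM, with SD) of 6 transcripts of Ube2n, Ube2q1 and Ube2w in GV and MII oocytes of batch A and GV and MI oocytes of batch B. Ube2n-204, Ube2q1-202 and Ube2w-201 are lower at MII than at GV in batch A, and no transcript of these genes passed the test in batch B.

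A test of the shares themselves (edgeR diffSpliceDGE, Simes p per gene) called 0 of 21 members with several tested transcripts between GV and MII oocytes, where 2.39% of 5477 genes were called. The member with the smallest p was Ube2n (unadjusted p = 0.0464, adjusted p = 0.595), the only member of the 21 under 0.05 before adjustment, and no second tool was run for shares. Between GV and MI oocytes 0 transcripts of members were called (0.00% of 22717 transcripts by edgeR), with 5 of 83 at an unadjusted p under 0.05, beside 1615 of 22717 in all; DESeq2 was not run on transcripts. Shares were called for 0 of 22 members there (0.0723% of 5535 genes), with 1 member, Ube2w, at an unadjusted p under 0.05 (p = 0.0437, adjusted p = 1).

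Reads of near-identical copies limit what can be said of some members. Ube2n-ps1, a processed pseudogene on chromosome 5, had 12 to 243 counts in all 37 oocytes (mean 81.5), beside a mean of 644 for Ube2n. Ube2d-ps, on chromosome 11, had 1 to 133 counts (mean 44.1), beside means of 5703 for Ube2d3, 1823 for Ube2d2a and 32.4 for Ube2d1. RSEM divides reads that fit several copies by its model, so the levels of Ube2n and of the Ube2d genes are uncertain by an unknown share. The other 4 rows left out, Ube2d4, Ube2l3-ps1, Ube2nl and Ube2uos, had means of 0, 0.0811, 0.108 and 1.297 counts.

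Around the E2s, the messages of ubiquitin and the ubiquitin-like proteins fell most at MII. Of 12 such genes 11 were tested between GV and MII oocytes, and 6 were lower at an adjusted p under 0.05, 3 of them by over 2-fold, with none higher (11.5% lower and 9.06% higher among all genes tested). Their median log2 change was -0.75, beside 0.01 for all genes tested (-1.46 beside -0.72 with spike-in scaling). Rps27a, which encodes ubiquitin fused to a ribosomal protein, went from a mean of 53.7 ± 12.9 CPM to 8.93 ± 3.58 CPM (SD, n = 6 and 6; log2 change -2.59, SE 0.265, adjusted p = 1.05e-05). Ubb went from 3039 ± 703 to 1323 ± 419 CPM (log2 change -1.20, SE 0.209, adjusted p = 0.00105), and with HTSeq counts its log2 change was -0.77 (adjusted p = 0.00936), short of 2-fold. For Rps27a and Ubb the 6 MII oocytes all lay below the 6 GV oocytes. Fau, whose product carries a ubiquitin-like protein, had a log2 change of -0.93 (SE 0.217, adjusted p = 0.00696).

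The E1 enzymes, 8 tested of 10, held 0 genes at an adjusted p under 0.05 between GV and MII oocytes by edgeR and 0 by DESeq2. With spike-in scaling 4 were lower at an adjusted p under 0.05 with any fold. All 8 were below 0, with a median log2 change of -0.84 beside -0.72 for all genes tested. By that scaling 3788 of the 12929 genes tested were lower by over 2-fold at an adjusted p under 0.05, a stricter rule than that of the 4. Uba2 of the SUMO pathway had the smallest adjusted p under the main scaling (log2 change 0.27, SE 0.118, adjusted p = 0.112; -0.47 with spike-in scaling). Among 18 APC/C subunits and regulators, 2 were higher and 3 lower at an adjusted p under 0.05, none by over 2-fold (9.06% higher and 11.5% lower among all genes tested), and with spike-in scaling all 18 were below 0. The subunit Anapc15 (log2 change -0.53, SE 0.133, adjusted p = 0.0106), the activator Fzr1 (log2 change -0.64, SE 0.188, adjusted p = 0.0238) and the inhibitor Fbxo5 (log2 change -0.60, SE 0.177, adjusted p = 0.0242) were lower. With HTSeq counts Anapc15 had a log2 change of -0.49 and did not pass (edgeR adjusted p = 0.0601). The subunit Anapc1 was higher (log2 change 0.48, SE 0.138, adjusted p = 0.0230; -0.28 with spike-in scaling). The activator Cdc20 was the other higher gene (log2 change 0.54, adjusted p = 0.0491), but not without MII oocyte 1 (0.58, adjusted p = 0.0566), with HTSeq counts (0.55, adjusted p = 0.0594) or with spike-in scaling (-0.13).

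Of 17 E3 ligases with a named E2 partner, 4 were higher and 1 lower at MII at an adjusted p under 0.05 (9.06% and 11.5% of all genes tested), and with spike-in scaling all 17 were below 0. The one that fell, by over 2-fold, was Fancl, the ligase that works with Ube2t: it went from 8.22 ± 2.94 to 2.77 ± 0.915 CPM (SD, n = 6 and 6; log2 change -1.57, SE 0.310, adjusted p = 0.00251). Ube2t itself did not pass the test. Shprh (log2 change 0.57, SE 0.127, adjusted p = 0.00522), Rnf20 (log2 change 0.59, SE 0.146, adjusted p = 0.0106) and Arih1 (log2 change 0.49, SE 0.147, adjusted p = 0.0260) were higher, and turned to -0.19, -0.19 and -0.27 with spike-in scaling. Without MII oocyte 1 the higher genes of this list numbered 3. Rnf20 works with Ube2a and Ube2b, Arih1 with Ube2l3. Among 9 genes with an E2 fold outside the Ube2 name, 1 was lower and 1 higher (11.5% and 9.06% of all genes tested): Tsg101 was lower (log2 change -0.66, SE 0.156, adjusted p = 0.00803) and Birc6 higher (log2 change 0.43, SE 0.133, adjusted p = 0.0300; -0.34 with spike-in scaling).

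Between GV and MI oocytes none of the 5 surrounding lists held a gene at an adjusted p under 0.05 by edgeR. All 10 tested genes of the modifier list had fitted changes below 0 there, with a median log2 change of -0.25 (Ubb -0.48, SE 0.207, adjusted p = 0.365). Of all genes tested 5942 of 12419 were below 0, and so were 10 of the 12 oocyte markers, with a median log2 change of -0.26. The difference between the change to MII and the change to MI passed the test for 5.46% of all genes tested. In the modifier list it passed for 1 gene above 0 and 2 below 0, among them Rps27a (-2.26, SE 0.360, adjusted p = 0.000107) and Sumo2 (0.75, SE 0.211, adjusted p = 0.0238). In the E3 list it passed for 2 genes, both above 0, Shprh among them (0.65, SE 0.191, adjusted p = 0.0329). The change of Sumo2 to MII had itself not passed the edgeR test (log2 change 0.43, adjusted p = 0.0756) and turned to -0.32 with spike-in scaling.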

How the data were processed

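Single-oocyte RNA-seq of 37 mouse oocytes was analysed by stage within batch. The authors trimmed reads (Trim Galore 0.6.4), aligned them to mm10 (STAR 2.7.6a) and deposited RSEM 1.3.1 tables per gene and transcript, whose values are expected counts (unit: expected count), and an HTSeq 0.12.4 table, whose deposited values are read counts (unit: count). Symbols, gene types and lengths came from GENCODE M21 (the authors used VM20); 54723 of 54844 rows matched by identifier.

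Expected counts were rounded and ERCC spike-ins left out. Genes passing filterByExpr (minimum count 10) were tested in edgeR 4.0.16 (R 4.3.3, limma 3.58.1) with TMM, glmQLFit and glmQLFTest, with Benjamini-Hochberg adjustment over all features; called means adjusted p under 0.05 and fold over 2. Normalised counts are CPM on TMM-scaled libraries, and SE is the log2 change divided by the root of F. Transcript shares were tested with diffSpliceDGE, and TPM were computed from transcript counts and lengths over the transcripts of protein_coding genes. The pipeline was tested on simulated data.

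Named with values are Ube2c, Ube2s, called members, the 5 smallest adjusted p per comparison, the 5 highest levels in GV oocytes of each batch, members with called transcripts, members failing the filter, and up to 4 genes per pathway list; other names were chosen after their values were seen, and 3 genes that are part of the counts are not reported here by name. The members and lists were chosen with earlier results of these data known.

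Alternatives were RLE, no filter, DESeq2 1.42.0, HTSeq counts, spike-in totals, a replicate block, batch as a covariate and leaving out oocytes. Figures used Python 3.11.15, pandas 2.3.3 and matplotlib 3.10.9.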

Additional observations from a re-analysis of the deposited data

Results flagged for a closer look

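Of 69 groups of values examined for an oocyte far from the others of its group, 7 had one, and chance alone gives about 1 in 20 such groups. The MI oocytes were not examined, as their group was larger than the critical values covered. Among them Ube2g1 stood at 326.3 CPM in MI oocyte 6, where the next oocyte had 198.2. Ube2d2b had 0.107 CPM in MII oocyte 3 and 0 in the other MII oocytes. In GV oocytes of batch B, oocyte 7 was far above the rest for Ube2n (83.1 CPM, next 57.0) and for the summed level of the members (7049 TPM, next 5762). GV oocyte 8 of batch B was far above for Ube2v1 (26.1 CPM, next 16.6). MII oocyte 1 had 29816 genes with a count (next 22598) and 14.7 CPM of blood and immune markers (next 2.43), and GV oocyte 4 of batch A had 2.00 CPM of these markers (next 0.906). Each oocyte of batch A was left out in turn in the comparison of GV with MII oocytes, and the part of GV oocytes 7 and 8 of batch B in the results was not tested.

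The change to MII differed from the change to MI, by the test of the difference itself, for genes that include Ube2d2a (0.73 on the log2 scale), Ube2w (-0.89), Rps27a (-2.26), Sumo2 (0.75) and Shprh (0.65). Stage, batch and place of maturation cannot be told apart in these differences. Outside the protein_coding genes, counts were present for the pseudogenes Ube2d-ps (mean 44.1 per oocyte) and Ube2n-ps1 (mean 81.5 per oocyte), above the 3 counts that a count of 0 allows.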

How the results depend on the processing

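Between GV and MII oocytes the count of members called (2) was 2 under every alternative run except spike-in totals as library sizes, which gave 9, all lower. The count at an adjusted p under 0.05 (5) was 5 with RLE size factors, 7 with DESeq2 and 4 with HTSeq counts, 18 with spike-in totals, 3 without the low-count filter, 3 with a replicate block and 3 with batch as a covariate, and ran from 3 to 6 when each oocyte of batch A was left out in turn (3 without GV oocyte 1, GV oocyte 5 or MII oocyte 4). Spike-in totals turned the log2 change of Ube2d2a to -0.21, of Ube2d3 to -0.60, of Ube2k to -0.58 and of Ube2t to -0.69; with them 131 genes in all were called higher and 3788 lower, against 278 and 817 under TMM. Between GV and MI oocytes the members called were 0 under every alternative run, the replicate block included. The count of members whose change differed between MII and MI (2) was 1 without the low-count filter, 0 with HTSeq counts and 1 without MII oocyte 1. Of the alternatives added after seeing the data, HTSeq counts without MI oocytes 4, 8 and 9 gave 0, RSEM counts without them gave 1, leaving out MI oocyte 15 gave 2, and for GV against MI RSEM counts without them gave 0. Called transcripts between GV and MII oocytes (3) were 3 without the filter and 4 without MII oocyte 1. For the replicate block (2 called members at MII), same-numbered oocytes share only a number: their correlations ran from -0.327 to 0.341 in batch A, where only number 1 of 6 matched its own number best, and none of 10 did in batch B. The causes were not tested. Low-count members are limited by depth, and oocytes of the same animal could not be identified.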
